A study of Mus musculus with 4 samples.

Results

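The S100 calcium-binding proteins were represented by 8 genes, chosen by symbol: S100a8, S100a9, S100a4, S100a6, S100a10, S100a11, S100a1 and S100a13. All 8 were found among the 17476 genes of the count table, and all 8 passed the filter on low counts that left 14239 genes for testing. The libraries came from myeloid-derived suppressor cells (MDSCs), immature myeloid cells of both granulocytic and monocytic kind that can dampen T cell responses, with 2 libraries of wild-type (WT) and 2 of Trem2 mutant genotype, both on the C57BL/6 strain. The Trem2 receptor senses lipids on the surface of macrophages and related cells, and the study asked how its mutation changes the genes that MDSCs express. Per the labels, the cells of both genotypes were differentiated in vitro from bone marrow and injected into male NRG mice, an immunodeficient strain without lymphocytes. The recipients had been given TRAMP-C1 cells, a mouse prostate cancer line, under the skin at 6 weeks of age, and the injection followed 4 weeks later. Tumours were taken after 6 h and digested for 45 minutes, and the sort gate was CD45+ CD11B+ GR1+. NRG hosts keep myeloid cells of their own, and this gate cannot tell them from the injected cells. For the kind of Trem2 mutation and for the donors' age, the sources used here give nothing.

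S100 proteins are small cytosolic proteins with a pair of EF-hand loops that bind calcium, and most act as dimers that expose a binding face when calcium rises. S100A8 and S100A9 form a heterodimer, calprotectin, which is among the most abundant cytosolic proteins of neutrophils, sequesters zinc and manganese from microbes, and acts as an alarmin when released, through receptors that include TLR4 and RAGE. The other proteins are more widely expressed and work mostly inside the cell on annexins, myosin and the cytoskeleton. In MDSCs, S100A8 and S100A9 are known as markers of the granulocytic branch and as factors that keep myeloid cells immature.

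The libraries held 8037733 to 10306674 counted reads. Trem2 itself had 406 and 477 reads in WT and 191 and 195 in mutant libraries, a log2 fold change of −1.14 (SE 0.125, edgeR quasi-likelihood test, adjusted p = 0.00157). Of the genes behind the sort gate, Ptprc (CD45) averaged 1138 CPM in WT against 1346 CPM, and Itgam (CD11b) 425 and 648 CPM, where CPM is the read count relative to the TMM-scaled library size. Ly6g, which encodes the main antigen of GR1 antibodies, was low in WT at 6.44 CPM and rose to 133 CPM. Ly6c2, a monocyte marker from the gene pair behind the Ly6C antigen that these antibodies also bind, rose from 25.9 to 330 CPM (log2 fold change 3.67). Trem2 mutant 1 stood apart in that the single locus Gm42418, which overlaps ribosomal RNA sequence, took 13.9% of its reads against 0.258% to 1.04% in the other libraries. Xist, which is expressed from the silenced X in females, had 2 and 3 reads in WT and 6928 and 9117 in mutant libraries, and Y-linked Kdm5d had 374 and 365 against 51 and 55, so sex-linked transcripts moved with genotype. The sex-linked difference and the genotype cannot be told apart here, and leaving out a library does not separate them. The part of Gm42418 in the results on S100 genes was not tested, beyond the values with this locus or a library left out. The labels do not state whether libraries of a genotype had separate animals or cultures as their source. The p-values therefore describe the spread among these 4 samples alone, and that spread may be technical.

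The S100 genes did not move as a block. Of the 8 genes, S100a8, S100a9, S100a6 and S100a11 rose in the mutant libraries, S100a4 and S100a10 fell, and S100a1 and S100a13 did not pass the test (edgeR quasi-likelihood test, Benjamini-Hochberg adjusted p under 0.05). The same test called 9.55% of all 14239 genes higher and 3.60% lower. The median log2 fold change was 0.50 over the 8 genes and −0.02 over all genes tested. In 5 of the 8 genes both mutant libraries lay above both WT libraries, an arrangement found in 28.9% of all genes, and in S100a4 and S100a10 both lay below, as in 31.7% of all genes. Only for S100a1 did the groups overlap. Scaled by library totals alone, 3 S100 genes rose and 2 fell, since S100a11 lost its call, and the median over all genes moved to −0.40. That scaling called 650 of all genes (4.56%) higher and 4365 (30.7%) lower, where TMM called 1360 and 513. Counts of list genes under library totals alone, given below, stand beside these shares. Without WT 1 and without WT 2, fewer genes were called over the whole table as well. The loss of list calls in those fits is therefore not particular to the lists.

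**Figure D1:**
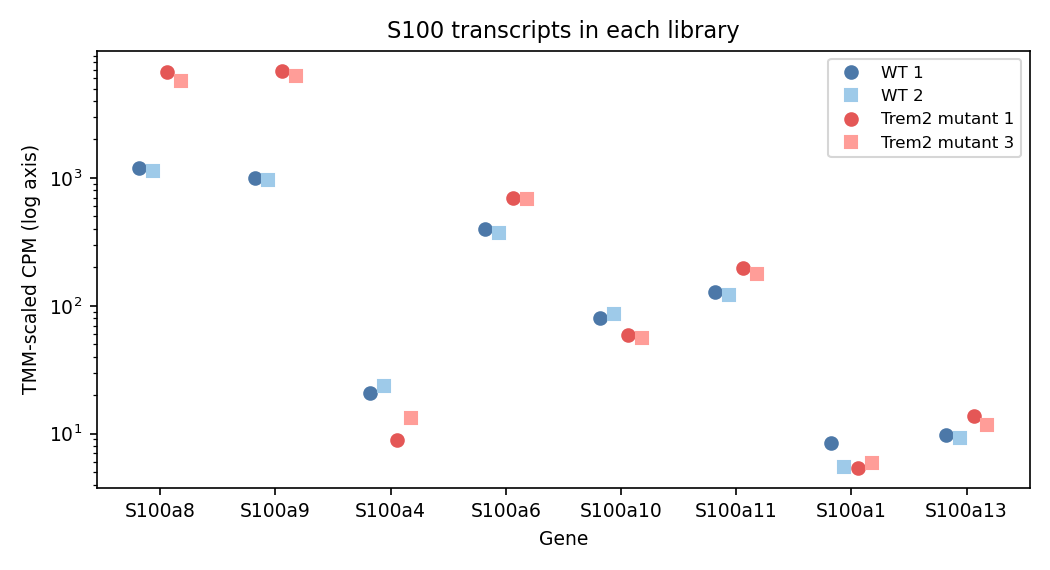
TMM-scaled CPM (log axis) of the 8 S100 genes in each of the 4 libraries; each point is 1 library. For S100a8 the mutant libraries sit at 5780 and 6722 CPM against 1143 and 1202 CPM in WT, for S100a4 and S100a10 they sit below WT, and for S100a1 the groups overlap.

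S100a8 encodes the calprotectin subunit also known as MRP8. It lies on GRCm38 chromosome 3, 90668978 to 90670035, plus strand (ENSMUSG00000056054). It had 11045 and 10442 reads in WT 1 and WT 2, and 56116 and 53783 reads in Trem2 mutant 1 and Trem2 mutant 3. Scaled, these were 1202, 1143, 6722 and 5780 CPM. Both mutant libraries lay far above both WT libraries. The mean went from 1172 ± 41.3 to 6251 ± 666 CPM (SD, n = 2 each), a rise of 5.33-fold (log2 fold change 2.41, SE 0.135, edgeR adjusted p = 6.93e-05).

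S100a9 encodes the partner subunit, MRP14, and starts 26.7 kb from the S100a8 start on the opposite strand (chromosome 3, 90692632 to 90695721, ENSMUSG00000056071). Its reads numbered 9144 in WT 1, 8828 in WT 2, 57688 in Trem2 mutant 1 and 58542 in Trem2 mutant 3. In the same order the levels were 995, 966, 6911 and 6292 CPM. The 2 libraries of each genotype were close, and the gap between genotypes was many times wider. The mean rose from 981 ± 20.0 to 6601 ± 438 CPM (SD, n = 2 each), or 6.73-fold (log2 fold change 2.75, SE 0.129, edgeR adjusted p = 3.01e-05). A rise of at least 4-fold that passed the test was found in 1.09% of all genes. In sorted cells measured in bulk, more cells of a type and more RNA per cell cannot be told apart.

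S100a9 rose slightly further than S100a8, and this showed in a ratio that does not depend on scaling between libraries. Of the reads on either subunit gene, S100a8 took 54.7% in WT 1 (95% Wilson interval 54.0 to 55.4) and 54.2% in WT 2 (53.5 to 54.9). It took 49.3% in Trem2 mutant 1 (49.0 to 49.6) and 47.9% in Trem2 mutant 3 (47.6 to 48.2). The intervals, which cover counting error only, did not overlap between genotypes, but neither did those of the 2 mutant libraries. Per kilobase of annotated exon, the level of S100a8 was 0.909 and 0.890 of that of S100a9 in WT and 0.732 and 0.691 in mutant libraries. With 2 libraries against 2, an exact two-sided permutation test cannot give a p below 0.333, so no test of these ratios was made.

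The 5′ flanks of S100a8 and S100a9 are printed because these genes rose together and furthest, and that of S100a4 because it fell. RefSeq (GRCm38.p6) gave a flank for 7 of the 8 genes. Each sequence reads 5′ to 3′ on the gene's strand and ends before the RefSeq start. The shorter S100a8 window lies downstream of the start that GENCODE M21 gives the gene, within its annotated span. Capitals mark letters that match a searched motif on either strand: TTNNGNAAT for C/EBP factors, GAGGAA for PU.1, TTCNNNGAA for STAT factors, TGANTCA for AP-1 and TATAAA for the TATA box.
S100a8, chr3:90668821-90668977, plus strand: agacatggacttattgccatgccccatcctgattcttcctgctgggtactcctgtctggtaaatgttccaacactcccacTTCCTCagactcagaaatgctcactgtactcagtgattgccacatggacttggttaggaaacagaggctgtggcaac
S100a8, chr3:90669029-90669058, plus strand, 42 to 13 bases before the RefSeq start: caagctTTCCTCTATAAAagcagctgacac
S100a9, chr3:90695722-90695971, minus strand: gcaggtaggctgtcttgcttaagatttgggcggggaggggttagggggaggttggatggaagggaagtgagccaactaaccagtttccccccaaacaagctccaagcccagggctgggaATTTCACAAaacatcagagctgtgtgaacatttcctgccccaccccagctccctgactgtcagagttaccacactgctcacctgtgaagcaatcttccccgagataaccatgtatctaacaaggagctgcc
S100a4, chr3:90603520-90603769, plus strand: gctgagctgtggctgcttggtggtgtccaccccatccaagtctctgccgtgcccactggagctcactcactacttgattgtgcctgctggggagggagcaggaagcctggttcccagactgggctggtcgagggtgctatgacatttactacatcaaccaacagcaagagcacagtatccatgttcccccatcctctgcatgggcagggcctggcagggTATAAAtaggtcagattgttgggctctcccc

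In the 250 bases before the RefSeq start, S100a8 held the PU.1 letters at 170 and 36 bases and TATAAA at 30 bases before the start. S100a9 held the C/EBP letters once, at 131 bases, and S100a4 held TATAAA at 31 bases. S100a11 held the AP-1 letters at 136 and 38 bases and the PU.1 letters at 153 bases. The flanks of S100a6, S100a1 and S100a13 held none of the 5 motifs. Of 32851 RefSeq promoters of the same length, 10.2% held the C/EBP letters, 23.3% those of PU.1, 7.02% those of STAT factors, 6.75% those of AP-1 and 12.4% TATAAA. A match of letters is a description of the sequence and not a binding site.

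S100a6 encodes calcyclin, which binds annexins and the ubiquitin ligase adaptor CacyBP. It lies on chromosome 3, 90612882 to 90624181, plus strand (ENSMUSG00000001025). It had 3663 and 3374 reads in WT and 5825 and 6360 in mutant libraries, or 398, 369, 698 and 684 CPM. Both mutant libraries were above both WT libraries. The mean rose 1.80-fold, from 384 ± 20.6 to 691 ± 10.1 CPM (SD, n = 2 each; log2 fold change 0.85, SE 0.0900, edgeR adjusted p = 0.00132). With library totals as the only scaling the log2 fold change was 0.47.

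S100a11 encodes calgizzarin, a partner of annexin A1. It lies on chromosome 3, 93520488 to 93526287, plus strand (ENSMUSG00000027907). It had 1180 and 1117 reads in WT and 1643 and 1658 in mutant libraries, or 128, 122, 197 and 178 CPM. The rise was smaller than for S100a6, from 125 ± 4.31 to 188 ± 13.2 CPM (SD, n = 2 each; log2 fold change 0.58, SE 0.0857, edgeR adjusted p = 0.00512). Its call was lost without WT 2 (log2 fold change 0.55, edgeR adjusted p = 0.0513). It was also lost with library totals as the only scaling (0.20, edgeR adjusted p = 0.272), and the adjusted p ranged from 8.02e-05 to 0.272 over 13 alternatives.

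S100a10 encodes p11, which binds annexin A2 in a heterotetramer, holds it at the plasma membrane and does not bind calcium itself. It lies 3′ of S100a11 on chromosome 3, 93555080 to 93564643, plus strand (ENSMUSG00000041959). It had 740 and 790 reads in WT and 496 and 523 in mutant libraries, or 80.5, 86.5, 59.4 and 56.2 CPM. Both mutant libraries lay below both WT libraries. The mean was 1.44-fold lower, going from 83.5 ± 4.23 to 57.8 ± 2.27 CPM (SD, n = 2 each; log2 fold change −0.53, SE 0.0884, edgeR adjusted p = 0.00845). The call was lost without WT 1 (−0.58, edgeR adjusted p = 0.0528) and without WT 2 (−0.48, edgeR adjusted p = 0.0819). Over 13 alternatives the adjusted p ranged from 2.16e-04 to 0.0819.

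S100a10 and its partner went opposite ways. Anxa2, the annexin A2 gene, had 459 and 464 CPM in WT and 717 and 697 CPM in mutant libraries (log2 fold change 0.61, SE 0.0867, edgeR adjusted p = 0.00429). Its call was lost without WT 1 (log2 fold change 0.61, edgeR adjusted p = 0.0650) and with library totals alone (0.24, edgeR adjusted p = 0.228). The S100a10 to Anxa2 read ratio, which needs no scaling, was 0.175 and 0.186 in WT and 0.0829 and 0.0807 in mutant libraries. Ahnak, a very large scaffold protein bound by the same complex, fell with S100a10, from 2501 ± 28.9 to 1551 ± 65.9 CPM (SD, n = 2 each; log2 fold change −0.69, SE 0.107, edgeR adjusted p = 0.00621). Its call was lost without WT 1 (−0.70, edgeR adjusted p = 0.0716) and without WT 2 (−0.68, edgeR adjusted p = 0.0647). S100a10 also fell against its chromosomal neighbour S100a11, with per-kilobase ratios of 0.264 and 0.298 in WT and 0.127 and 0.133 in mutant libraries.

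**Figure D2:**
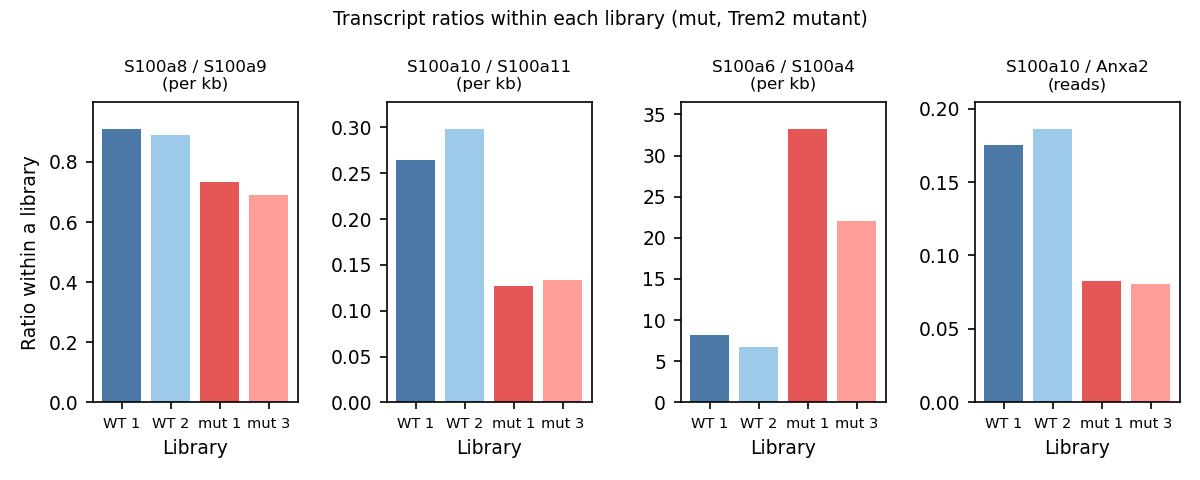
Ratios of transcripts within each library (bars, 1 per library; axes start at 0): per-kilobase levels of S100a8 to S100a9, S100a10 to S100a11 and S100a6 to S100a4, and reads of S100a10 to Anxa2. In each panel both mutant libraries lie on the same side of both WT libraries, with S100a10 to Anxa2 at 0.0829 and 0.0807 against 0.175 and 0.186.

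S100a4 encodes a partner of non-muscle myosin IIA, also known as fibroblast-specific protein or metastasin. It lies on chromosome 3, 90603771 to 90606045, plus strand (ENSMUSG00000001020). It had 191 and 215 reads in WT and 75 and 123 in mutant libraries, or 20.8, 23.5, 8.98 and 13.2 CPM. The mutant libraries were lower than WT but also differed from each other, Trem2 mutant 3 being 1.47 times Trem2 mutant 1. The mean was 1.98-fold lower, going from 22.2 ± 1.95 to 11.1 ± 2.99 CPM (SD, n = 2 each; log2 fold change −0.99, SE 0.195, edgeR adjusted p = 0.0164). The call was lost without WT 1 (−1.08, edgeR adjusted p = 0.0556) and without WT 2 (−0.90, edgeR adjusted p = 0.0856), and the adjusted p ranged from 1.31e-04 to 0.0856 over 13 alternatives. In GENCODE M21, 302 bases or 51.7% of the exonic length of S100a4 are shared with the same-strand gene Gm42674, which was not analysed here, so reads there could be assigned to either gene or to neither.

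S100a4 and S100a6, which lie on the same strand with S100a5 between them, moved apart. The per-kilobase level of S100a6 was 8.19 and 6.70 times that of S100a4 in WT and 33.2 and 22.1 times in mutant libraries. Myh9, the myosin IIA heavy chain that S100A4 binds, rose, with a log2 fold change of 0.75 (SE 0.125, edgeR adjusted p = 0.00849). That call was lost without WT 1 (log2 fold change 0.72, edgeR adjusted p = 0.120), without WT 2 (0.77, edgeR adjusted p = 0.0792) and with library totals alone (0.37, edgeR adjusted p = 0.0993).

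In WT, S100a1 and S100a13 were the least abundant of the 8. In the mutant libraries S100a4 averaged 11.1 CPM against 12.7 CPM for S100a13, and their order differed between the 2 libraries. S100a1, best known for calcium handling in muscle, lies on chromosome 3, 90511034 to 90514392, minus strand (ENSMUSG00000044080). It had 77 and 50 reads in WT and 45 and 55 in mutant libraries, or 8.38, 5.47, 5.39 and 5.91 CPM. WT 1 was the high library and the other 3 were alike, so the groups overlapped (log2 fold change −0.29, SE 0.268, edgeR adjusted p = 0.506). Without WT 1 the log2 fold change was 0.05. S100a13, which takes part in the export of FGF1 and interleukin-1 alpha, starts beside S100a1 on the other strand (chromosome 3, 90514435 to 90524581, plus strand, ENSMUSG00000042312). It had 89 and 85 reads in WT and 115 and 108 in mutant libraries, or 9.68, 9.30, 13.8 and 11.6 CPM. The mutant libraries lay above WT without passing the test (log2 fold change 0.42, SE 0.177, edgeR adjusted p = 0.162).

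**Figure D3:**
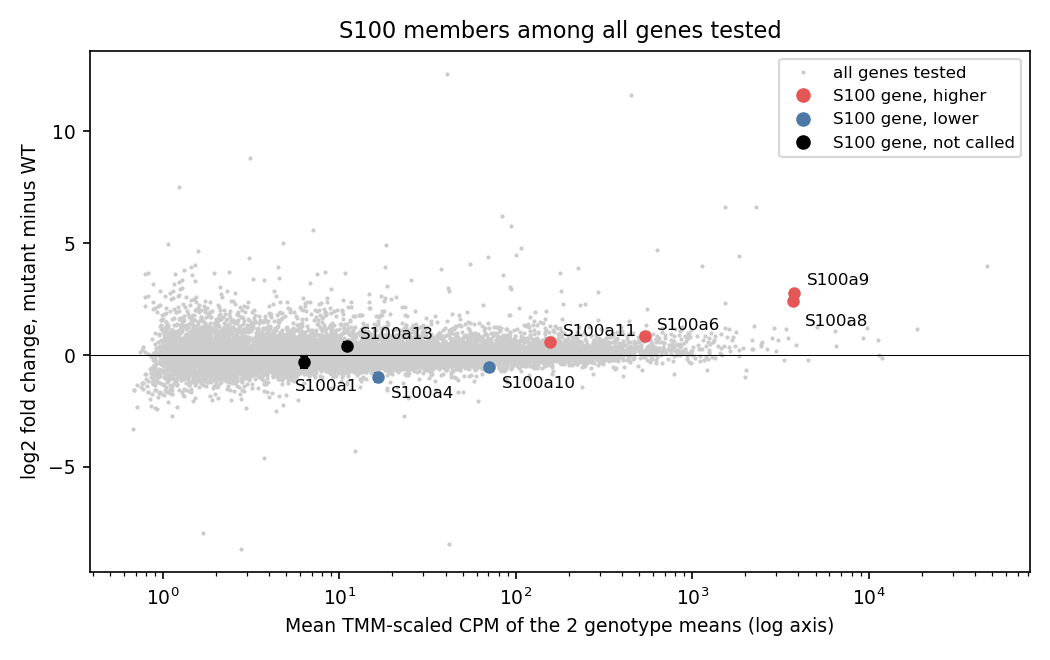
log2 fold change (mutant minus WT) against the mean of the 2 genotype means in TMM-scaled CPM (log axis) for all 14239 genes tested (grey) and the 8 S100 genes, with bars of 1 SE. S100a8 and S100a9 combine a very high level with log2 fold changes of 2.41 and 2.75, while the other 6 lie between −0.99 and 0.85.

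Because S100a8 and S100a9 were already the most abundant S100 transcripts, their rise changed the make-up of the family. The 8 genes took 0.325% and 0.308% of all reads in WT 1 and WT 2, and 1.18% and 1.23% in Trem2 mutant 1 and Trem2 mutant 3. The 6 genes other than the calprotectin pair took 0.0739% and 0.0697% of reads in WT and 0.0796% and 0.0899% in mutant libraries. Per kilobase, the pair made up 84.4% and 84.5% of the summed S100 level in WT and 95.9% and 95.6% in mutant libraries. The ratio of the pair to the other 6 went from 5.44 ± 0.0164 to 22.4 ± 1.13 (SD, n = 2 each), 4.12 times higher. This contrast is given without a test, since the genes were chosen with results of these data known.

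On the per-kilobase scale the order in WT was S100a9 (1878 ± 38.4 CPM per kilobase), S100a8 (1689 ± 59.6), S100a6 (281 ± 15.1), S100a11 (245 ± 8.43), S100a10 (68.9 ± 3.49), S100a4 (37.9 ± 3.34), S100a13 (13.3 ± 0.373) and S100a1 (9.98 ± 2.96; SD, n = 2 each). No adjacent pair in this order overlapped between its libraries. In the mutant libraries the order of the first 5 was the same, but S100a4 (19.0 ± 5.13 CPM per kilobase) and S100a13 (17.8 ± 2.15) no longer separated. Among all genes ranked by this level, S100a9 went from rank 12 and 10 in the WT libraries to rank 5 and 4 in the mutant libraries. S100a8 went from rank 14 and 13 to rank 6 and 5. S100a4 went the other way, from rank 1158 and 999 to rank 3058 and 2058. The per-kilobase order and ranks rest on the GENCODE M21 exonic lengths, 694 bases for S100a8 and 522 for S100a9. In CPM, without length, S100a8 (1172) stood above S100a9 (981) in WT.

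The other S100 genes of the table had few reads. Of 10 other S100 genes on a fixed list, 6 were in the table and none of these passed the filter for testing, while the other 4 were not analysed here. S100a7a had 4 to 11 reads in a library and S100b 4 to 10. S100a16 had 1 to 6 reads, and S100a3, S100a5 and S100g had 2 to 4. A count of 3 reads corresponded to 0.322 to 0.359 CPM, so these genes were at or near the limit of detection and no direction was read from them.

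The calprotectin genes rose in company with other neutrophil genes but not with all of them. Of 14 immature granule genes, 12 rose (median log2 fold change 4.56), their sum going from 2651 and 2466 CPM to 20835 and 15062 CPM, and all 4 with the lowest p rose further than S100a9. Those were Camp, the cathelicidin peptide (6.20), Ceacam10 (4.79), Ltf, lactoferrin (6.63), and Ngp (6.61). Mmp8 held 2188 and 2025 CPM of the sum in WT against 2929 and 2722 CPM (0.42). Its call was lost with upper-quartile scaling, the stricter filter, the bias-adjusted form and library totals alone (0.05). Mpo (1.42) rose less than S100a8, and Prtn3 (1.23) and Ctsg (0.80) did not pass. Fcnb, with 3 and 2 reads in WT, and Elane, with 7 and 5, passed the filter only through the mutant libraries. Of 14 mature neutrophil markers, 11 rose (median 0.85), their sum going from 11200 and 13029 CPM to 18880 and 24599 CPM. Of that sum Il1b alone held 3691 and 4556 CPM in WT against 6153 and 11291 CPM. The part of neutrophil number in the S100 results was not tested. Among the mature markers Ly6g (4.37) and Retnlg (3.06) rose more than S100a8, whereas Cxcr2, the chemokine receptor of mature neutrophils (0.77), rose less. Csf3r, the G-CSF receptor, averaged 1401 ± 46.9 CPM in WT against 1481 ± 121 CPM with overlapping libraries (SD, n = 2 each; log2 fold change 0.08, SE 0.109, edgeR adjusted p = 0.664). The read ratio of S100a8 to Csf3r was therefore 0.878 and 0.797 in WT and 4.82 and 3.69 in mutant libraries. Since Csf3r barely changed, this ratio mainly restates the rise of S100a8. Against Ly6g or Retnlg, which rose further, S100a8 fell. With library totals alone 7 mature markers rose, and 7 rose without WT 1.

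Markers of other cells moved with genotype as well. The summed level of 10 monocyte markers was 1424 and 1544 CPM in WT against 2582 and 1901 CPM in Trem2 mutant 1 and Trem2 mutant 3, and 6 rose. Ly6c2 rose further than S100a8 and S100a9 (log2 fold change 3.67), and Plac8 (1.16), Ms4a6c (1.34) and F13a1 (1.22) rose less. The 4 not called were Klf4 (0.60), Cx3cr1 (0.24), Ccr2 (0.15) and Csf1r (−0.28). Csf1r alone held 846 and 864 CPM of the sum in WT against 704 and 701 CPM. It was called lower with limma-voom and with library totals alone. Fn1 went from 175 and 277 CPM in WT to 906 and 400 CPM in Trem2 mutant 1 and Trem2 mutant 3. Of 10 macrophage markers 5, among them the Fc receptor gene Fcgr1 (0.87) and the complement gene C1qa (1.07), rose and 1, Gpnmb (−0.83), fell. The 4 not called went both ways. The sum of the 10 went from 1968 and 1995 CPM to 1743 and 1559 CPM. Gpnmb alone held 1036 and 978 CPM of it in WT against 529 and 602 CPM. All 6 tested eosinophil markers rose, among them the granule protein genes Prg2 (2.57) and Epx (2.41), with sums of 100 and 98.8 CPM in WT against 210 and 238 CPM. Ear1 had 0 reads in both WT libraries and 19 and 25 in mutant libraries. It passed the filter only through the mutant libraries and could only come out higher. Ear2 had 10 and 4 reads in WT against 47 and 26. Ccr3, which was not tested, had 6 and 9 reads in WT against 9 and 10. Of 7 tested fibroblast markers, the 3 collagen genes Col1a1, Col1a2 and Col3a1 rose, and the sums were 226 and 172 CPM in WT against 506 and 459 CPM. S100a4, S100a6 and S100a11 are also expressed by fibroblasts and by macrophages. Fibroblasts lie outside the CD45+ CD11B+ GR1+ gate, but the purity of the sort was not tested. Among epithelial markers Krt8 had 0 to 5 reads and Epcam 3 to 11, and Cdh1 fell from 155 to 83.8 CPM (log2 fold change −0.88), which made up most of the list's sums of 153 and 161 CPM in WT against 84.8 and 87.6 CPM. The sums of 5 tested lymphocyte markers were 14.9 and 16.1 CPM in WT against 9.34 and 11.1 CPM. Of these 5, 0 passed the edgeR test, and 1 was lower at an unadjusted p under 0.05. The part of these cells in the S100 results was not tested. Without WT 1, 3 monocyte, 1 macrophage and 3 eosinophil markers rose, and without WT 2, 3 eosinophil markers rose.

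Genes of receptors through which extracellular S100 proteins act rose in part. Of 12 on a fixed list, 6 passed and all 6 were higher, with a median log2 fold change of 0.42 over the 12. Cd33, a Siglec receptor reported to bind S100A9, went from 623 and 676 CPM to 1273 and 1251 CPM (log2 fold change 0.96, SE 0.0982). Mcam rose at a low level, from 1.58 to 5.40 CPM, and Cd36 from 3.60 to 8.60 CPM. Cd14, the TLR4 co-receptor, rose from 2115 to 4723 CPM, with Trem2 mutant 3 at 5659 CPM and Trem2 mutant 1 at 3787 CPM. Tlr4 itself changed less (0.41, SE 0.0831), and Ager, which encodes RAGE, was at 2.39, 2.08, 2.99 and 3.01 CPM in the 4 libraries and did not pass. Without WT 1 only Cd33 remained among the calls, and the calls of Cd36 and Tlr4 were also lost without WT 2. With library totals alone the log2 fold change of Tlr4 was 0.04.

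Intracellular partners went both ways. Of 14 measured on a fixed list, 5 rose and 2 fell, with a median log2 fold change of −0.04. Besides Anxa2 and Myh9, Anxa1, the S100A11 partner, rose from 346 and 335 CPM to 701 and 657 CPM (log2 fold change 1.0, SE 0.0889, edgeR adjusted p = 6.47e-04). Anxa11, a partner of S100A6, rose (0.68, SE 0.102, edgeR adjusted p = 0.00526), and Anxa6 rose (0.46). Ahnak fell, and Anxa5 fell by 0.32 on the log2 scale. The calls of Anxa11 and Anxa6 were lost without WT 1 and with library totals alone, Anxa6 also without WT 2. That of Anxa5 was lost without WT 1, without WT 2, without Trem2 mutant 3, with RLE scaling and with DESeq2. Without WT 1, 1 partner rose, and with library totals alone 2 rose and 6 fell.

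Among transcription factors known to act on S100 promoters, 4 of 11 rose (median 0.24). Cebpe, a factor of late granulocyte differentiation, went from 10.1 and 10.6 CPM to 30.7 and 17.2 CPM (log2 fold change 1.20, SE 0.265, edgeR adjusted p = 0.0249). Klf5 (1.97), Stat3 (0.51) and Cebpb (0.42) also rose, while Spi1, which encodes PU.1, did not pass (0.19, SE 0.0863). Without WT 1, 0 of the 11 passed (edgeR), and 4 were higher at an unadjusted p under 0.05, and without WT 2 those of Cebpe and Cebpb were lost. With library totals alone 2 rose and 3 fell, where 4.56% of all genes were higher and 30.7% lower.

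Other EF-hand proteins and calcium sensors served as a comparison. Of 17 genes, 6 rose, with a median of 0.19, among them Plscr1, a phospholipid scramblase (0.89, SE 0.126), Capn1, a calpain protease (0.68), Lsp1 (0.70) and Sri, sorcin (0.46). S100a8 and S100a9 thus lay above all 17 in log2 fold change, and S100a4 and S100a10 lay below all 17. Without WT 1 and without WT 2, 3 of the 17 rose each time, and with library totals alone 1 rose and 3 fell.

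Along the main cluster on chromosome 3, the tested S100 genes ran from S100a1 and S100a13, which did not pass, through S100a4, which fell, to S100a6, S100a8 and S100a9, which rose. S100a4 (−0.99) and S100a6 (0.85) start at −65.2 and −56.1 kb from the S100a8 start, and S100a11 (0.58) and S100a10 (−0.53) lie next to each other, among genes of the table, farther along the chromosome. Of 6 tested genes within 100 kb of a start that are not S100 genes, 1 rose and 1 fell. Over all genes tested, 9.55% were higher and 3.60% lower, so no property of the region was read from these 2 calls. Pglyrp4, a peptidoglycan recognition protein gene 57.9 kb beyond the S100a8 start, rose at a low level, from 1.15 to 2.88 CPM (log2 fold change 1.32, SE 0.353, edgeR adjusted p = 0.0477). Its call was lost in 9 of 13 alternatives, among them each library left out in turn. Ilf2 fell (−0.57, SE 0.0959, edgeR adjusted p = 0.00871), a call lost without WT 1 and without WT 2.

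**Figure D4:**
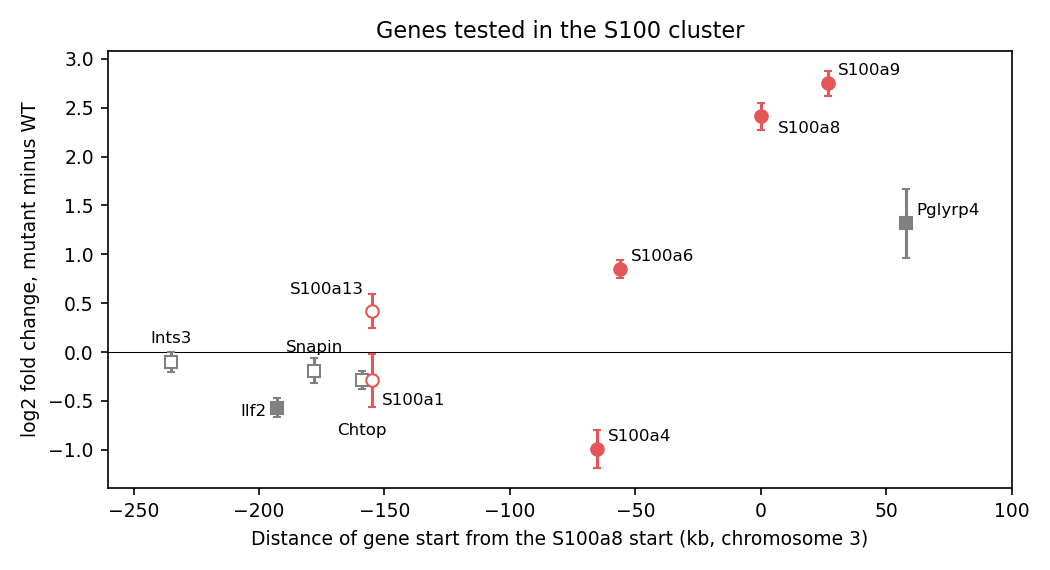
log2 fold change (mutant minus WT, bars of 1 SE) of genes tested in the main S100 cluster against the distance of each gene's start from that of S100a8 in kilobases; circles are S100 genes, squares other genes, and filled symbols passed the test. S100a4 at −0.99 and S100a6 at 0.85 stand side by side among the genes tested, and S100a8 and S100a9 stand highest.

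Genes with the most similar pattern were found by the Euclidean distance between centred log2 CPM over the 4 libraries, which share their libraries and depth. S100a8 and S100a9 were 0.344 apart. Closest to S100a8 were Hsd17b7 (0.173), Cldn15 (0.225), Ggt1 (0.228), Mgam (0.231) and Padi4 (0.243), which encodes the enzyme that citrullinates histones in neutrophil extracellular traps, then Cd55, Ankrd22 and Fmo5. Closest to S100a9 were Pglyrp1 (0.172), a neutrophil granule protein gene, Ankrd22 (0.202), Abca13 (0.263) and Rbpms (0.281), then Hsd17b7, Ggt1, Mogat2 and BC100530. Closest to S100a6 were Ifit2 (0.0592), Hp, the haptoglobin gene (0.0666), Aph1b (0.0672) and mt-Cytb (0.0684), then Castor2, Olfml2b, Ahr and Egln3. With 2 libraries per genotype this distance reflects mainly the size of the difference between genotypes.

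**Figure D5:**
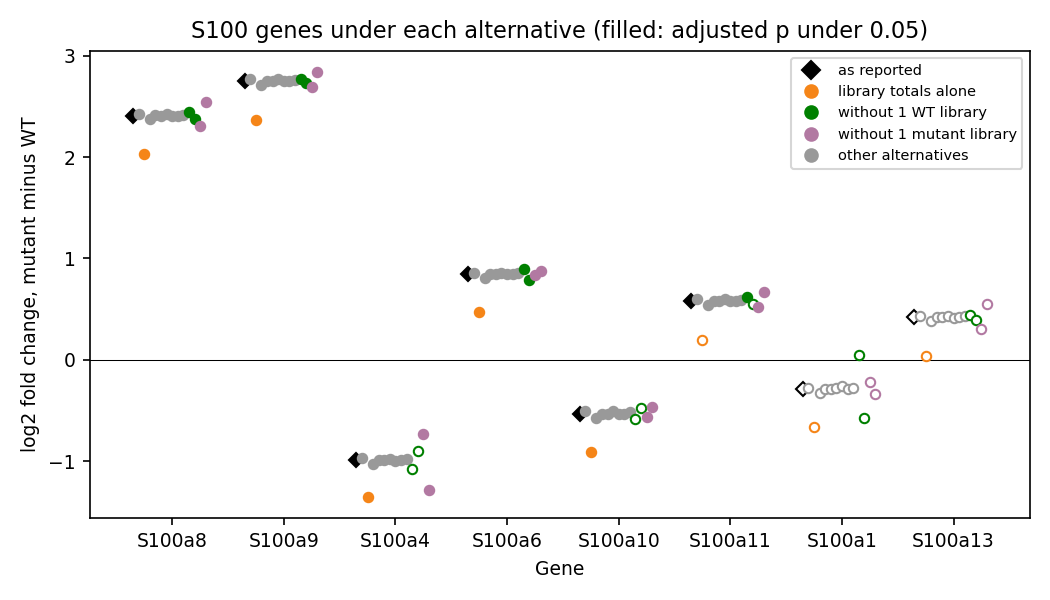
log2 fold change (mutant minus WT) of each S100 gene as reported (diamonds) and under 13 alternatives (circles); filled symbols passed an adjusted p of 0.05. S100a8, S100a9 and S100a6 stay filled throughout, and S100a4 and S100a10 lose their call only when a WT library is left out.

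Across those alternatives the log2 fold change of S100a8 ranged from 2.03 to 2.54, that of S100a9 from 2.37 to 2.84 and that of S100a6 from 0.47 to 0.90, and all 3 passed in 13 of 13. S100a4 ranged from −1.35 to −0.73 and S100a10 from −0.91 to −0.47. For S100a8, S100a9, S100a6 and S100a11 the lowest value came from library totals alone. With TMM 72.6% of all calls were higher.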

How the data were processed

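RNA of 4 libraries was depleted of ribosomal RNA and sequenced on a NextSeq 500, per the labels' protocols. The authors deposited raw counts of reads per Ensembl gene. Per the submitters' processing notes, the tools were STAR 2.5.2a, FastQC and DESeq2 and the build GRCm38 (mm10). The sources used here do not give the read counter, its strand setting or its annotation release. No gene had fewer than 11 reads in all. Of the IDs, 17422 matched GENCODE M21, which gave symbols, positions and exonic lengths, and 54 did not. One column carries the number 3, which no label has, and was used as a mutant library without a number. The libraries of a genotype differed beyond counting noise, with squared differences at a median of 2.15 (WT) and 8.43 (mutant) times it, so each counted as 1 library.

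Genes were filtered with filterByExpr, scaled with TMM and tested with edgeR 4.0.16 in R 4.3.3 (glmQLFit, glmQLFTest, two-sided, genotype as the only term, Benjamini-Hochberg over all genes). The fit had 2 residual and 5.71 prior degrees of freedom. SE is the log2 fold change over the root of F. Levels per kilobase divide CPM by exonic length. Intervals are 95% Wilson. Alternatives were RLE, upper-quartile and library-total scaling, no filter, a stricter filter (10 reads in 2 libraries and a mean of 1 CPM), DESeq2 1.42.0, limma-voom (limma 3.58.1), the bias-adjusted quasi-likelihood form, 36 genes (Gm42418, ribosomal RNA and mitochondrial) left out, and each library left out. With a library left out, the lone library of its genotype was assumed to vary like the other genotype. Scripts were tested on simulated data. Named were the 8 S100 genes, other S100 genes of the table, up to 4 genes of each of 13 lists by lowest p, any count of 5 or fewer, 8 genes of most similar pattern for S100a8, S100a9 and S100a6 (mean of at least 5 CPM), and genes starting within 100 kb. Outside this rule, chosen for their role or after their values were seen, are Tlr4, Ager, Spi1, Cxcr2, Csf3r, Il1b, Epcam, Krt8 and the genes that check the libraries (Trem2, Ptprc, Itgam, Xist, Kdm5d, Gm42418). Also named after their values were seen were Ccr2, Ccr3, Csf1r, Ctsg, Cx3cr1, Ear2, Elane, Fcnb, Fn1, Klf4, Mmp8, Mpo and Prtn3. Not every gene the rule takes is given its own value, some by choice and some because they are not reported here, though list counts include them. The S100 genes and the lists were chosen with earlier results of these data known.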

Additional observations from a re-analysis of the deposited data

How the results depend on the processing

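No paired analysis was possible because the columns of the genotypes share only the number 1. Over all genes, library totals alone gave 650 higher and 4365 lower against 1360 and 513 with TMM, and DESeq2 gave 198 lower. With 1 library left out in turn, 489 to 2090 genes were higher and 92 to 912 lower. Of the S100 genes, 3 to 4 were then higher and 0 to 2 lower. The counts of 0 came without WT 1 and without WT 2 (edgeR), where S100a4 and S100a10 kept an unadjusted p under 0.05, so 2 were lower on that measure. Under all other alternatives 2 S100 genes were lower, and 4 were higher except with library totals alone, where it was 3. Of 1908 values for 147 other list, similar or neighbouring genes, 1760 kept their direction and side of the threshold or stayed without a call, 103 lost the call and 45 gained one. The cause of these changes was not tested. Depth limits S100a1, S100a13 and S100a4, whose libraries held 45 to 215 reads.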
